A study of Rattus norvegicus with 12 samples.

Results

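The molecular chaperones and the genes of the endoplasmic reticulum (ER) and heat shock stress responses were examined as a list of 36 genes found by gene name, a list drawn up with earlier results of these arrays known. Of the 36 genes, 34 had at least 1 probe, and together they were read by 52 of the 41012 probes and stood among 35698 distinct names on the array. The present gene name was carried by 40 of the probes, an older name (Hspca, Hspcb, Tra1 or Myd116) by 9, and a synonym of Sesn2 or Manf by 3. Xbp1 and Sdf2l1 matched no probe by these names. On all 12 arrays, 33 of the 34 genes were well above background, whereas Hspa1b was not above background on any array, and no fold is given for it. Hspa1a and Hspa1b are near-identical paralogs, so the signal of the Hspa1a probes cannot be assigned to 1 of them with certainty.

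RNA came from high-density cultures of dissociated hippocampal neurons of Sprague-Dawley rat embryos (E18.5), and treatment began at 10 to 13 days in vitro and lasted 48 h. The 3 groups of 4 arrays received vehicle (CTL), tetrodotoxin (TTX, 0.5 to 1 μM), which blocks sodium channels and silences action potentials, or the GABA-A receptor antagonist bicuculline (BC, 20 μM), which removes inhibition. The vehicle is 0.1% DMSO in the sample labels and water in the methods of the study, and the sources used here do not state if the 4 RNA samples per group were grown as independent cultures. The p-values therefore rest on a spread among samples that may be technical. The comparisons of TTX and of BC with CTL rest on the same 4 CTL arrays.

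Each array gave 1 brightness per probe, here called the signal and given as log2 after the 12 arrays had been brought to 1 common distribution of values (quantile normalization). A gene is described by its brightest probe, and because brightness also depends on the probe, levels are compared between groups and never between genes. A fold change is a difference of group means on the log2 scale, with its standard error (SE) from limma, and the adjusted p is limma's after Benjamini-Hochberg adjustment over all probes. A gene was called when its adjusted p was under 0.05 and its change was at least 1.5-fold in either direction, which is 0.585 on the log2 scale.

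Chaperones hold unfolded proteins until they reach their native shape, and each compartment of the cell has its own set. When unfolded proteins collect in the ER, the sensors IRE1, PERK and Atf6 switch on the unfolded protein response, which raises ER chaperones such as Hspa5 (BiP) through ER stress elements in their promoters. PERK and related kinases also phosphorylate the initiation factor eIF2α, which lowers protein synthesis while the transcription factor Atf4 is translated more, a branch called the integrated stress response. In the cytosol, heat shock factor 1 (Hsf1) raises HSP70, HSP90 and their co-chaperones, and neurons are known for a weak Hsf1 response.

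The cultures carried neuronal transcripts: Rbfox3 (NeuN), Slc17a7 (VGLUT1) and Gad1, and also the astrocyte marker Gfap and the myelin gene Mbp, were well above background on all 12 arrays. The microglial markers Aif1 and Itgam and the endothelial marker Pecam1 were not above background on any array. Between 74.1 and 78.1% of the probes were well above background on an array. Every one of the 4 slides held 1 array per group, and arrays of different groups deviated together within 2 pairs of slides, called slide set 1 and slide set 2 here. The deviations of arrays from their group means correlated between groups, over all probes, at 0.20 to 0.41 within a slide set and at -0.39 to -0.20 between the sets. Each group had 2 arrays in each set, so values within each set are given beside the calls on the brightest probes. In RNA from mixed cultures, fewer cells of a type and less RNA per cell cannot be told apart.

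Few members passed both thresholds against CTL and more did so between TTX and BC, as was the case over all genes. In TTX against CTL, 0 of the 34 genes were called by limma, beside 4.17% of all 35696 genes tested (1.48% higher and 2.69% lower) and 4.84% of the 14470 genes with a mean log2 signal of 8 or more, called the brighter genes here. The methods' t-test, which the study names for its statistics in general and not for the arrays, with Benjamini-Hochberg adjustment also called 0, and 16 of the 34 (47.1%) had an unadjusted p under 0.05, beside 21.5% of all genes. At an adjusted p under 0.05 with no fold threshold there were 7 members (20.6%), beside 9.71% of all genes and 15.8% of the brighter genes. Of these 7, 2 were higher and 5 lower, where 4.32% of all genes were higher and 5.39% lower.

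In BC against CTL, 2 genes (5.88%) were called, beside 3.61% of all genes and 3.72% of the brighter genes. Cryab was higher, as were 2.14% of all genes, and Hspa4 was lower, as were 1.47%. An adjusted p under 0.05 was reached by 6 members (17.6%), beside 8.09% of all genes and 12.6% of the brighter genes, and 4 of the 6 were higher and 2 lower, where 4.61% and 3.49% of all genes were.

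In TTX against BC, 7 genes (20.6%) were called, beside 10.9% of all genes and 12.8% of the brighter genes. Pdia3 and Hspa4 were higher in TTX, as were 4.68% of all genes, and Chac1, Sesn2, Ppp1r15a, Hspa1a and Cryab were lower, as were 6.19%. With no fold threshold there were 16 (47.1%), beside 23.4% of all genes and 36.9% of the brighter genes, with 7 higher and 9 lower in TTX, where 11.3% and 12.1% of all genes were. The median log2 change over the 34 genes was 0.05 in TTX and 0.08 in BC, beside 0.01 and -0.01 over all genes.

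**Figure D1:**
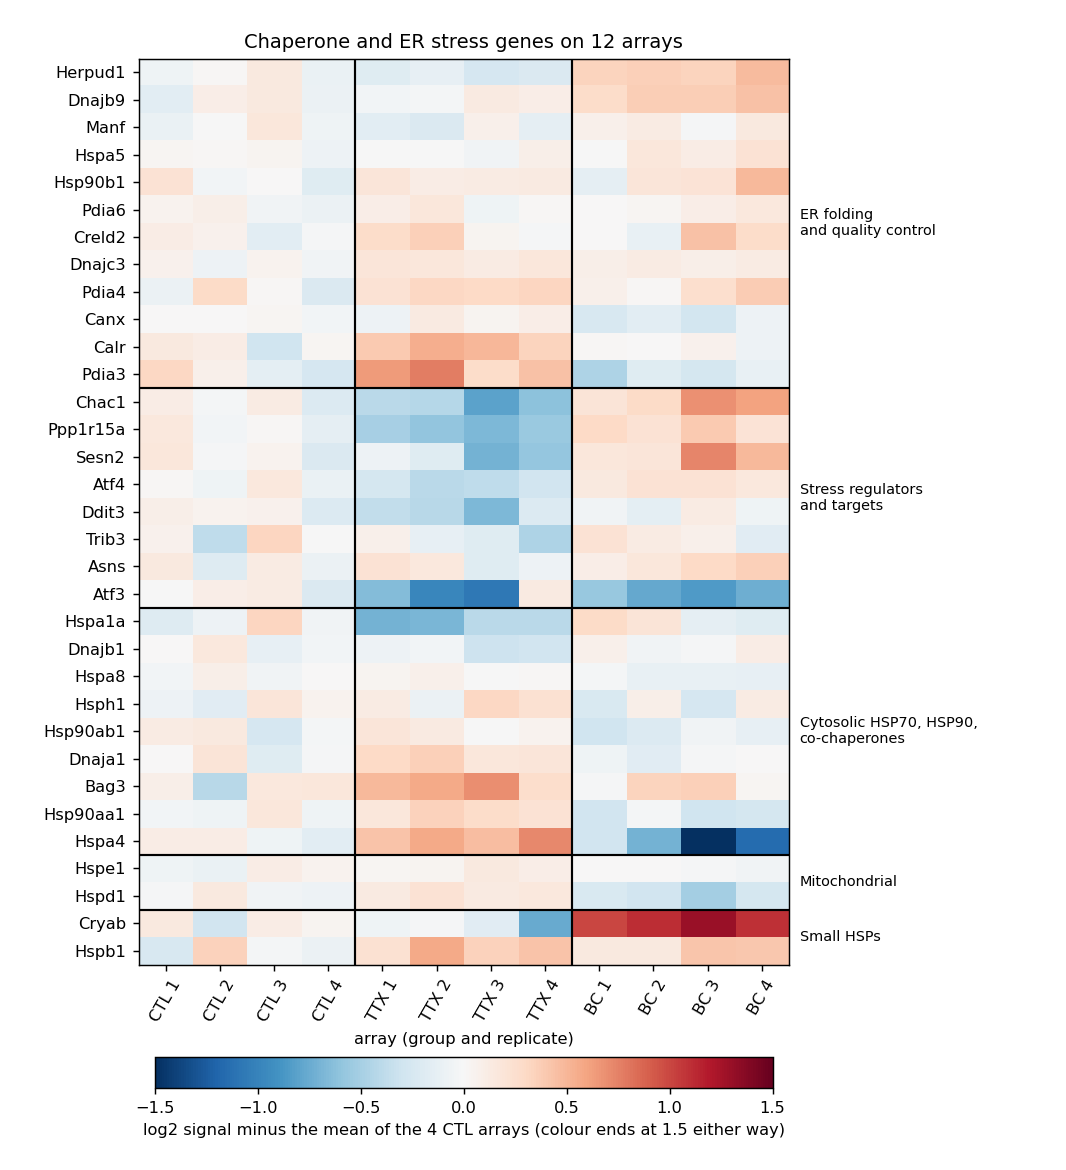
Log2 signal of the 33 genes above background on each of the 12 arrays (columns, by group and replicate), shown as the difference from the mean of the 4 CTL arrays and ordered by role; red is higher and blue lower, and the colour ends at 1.5 in either direction, which Hspa4 passed on BC replicate 3. Chac1, Ppp1r15a, Atf4, Ddit3, Herpud1 and Hspa1a were lower on every TTX array than on every CTL array, and 5 members were higher. On every BC array 7 members, Cryab among them, were higher than on every CTL array, and 4 were lower. Such groups without overlap were 32.4% of the members in each comparison, beside 15.5% of all genes in TTX and 13.6% in BC.

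**Figure D2:**
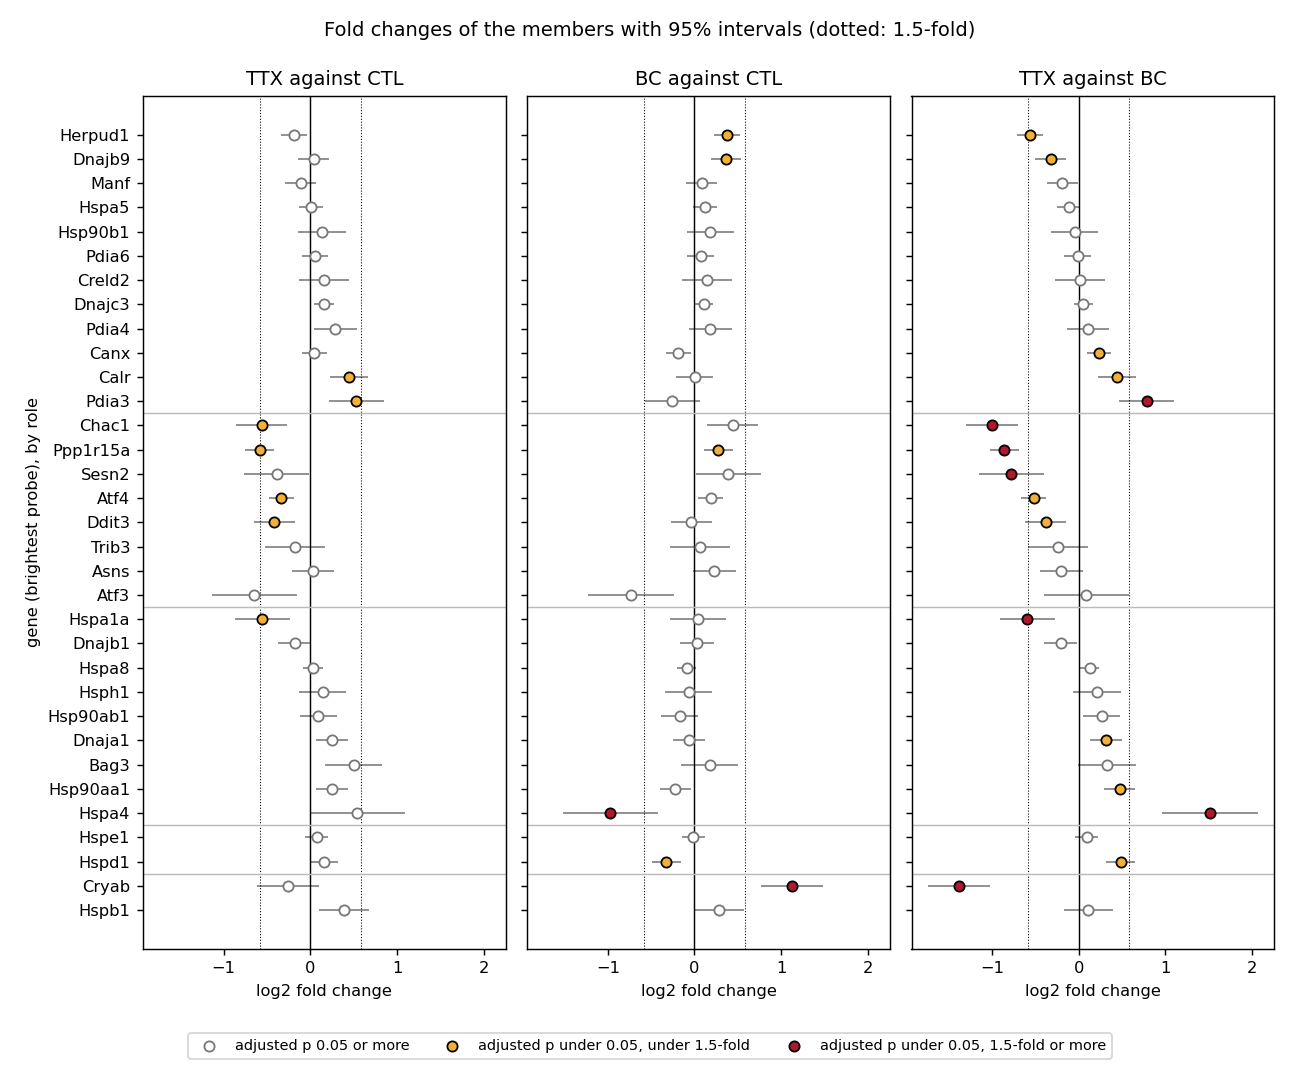
Log2 fold change of each of the 33 genes in the 3 comparisons (points) with its 95% interval (lines); dotted lines mark 1.5-fold in either direction, and the fill of a point gives the test result. No gene was called in TTX against CTL, 2 were called in BC against CTL and 7 in TTX against BC.

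Of the 8 regulators and targets of the stress responses that were measured, 7 had a lower mean in TTX than in CTL. For 4 of the 8 (50%) the adjusted p was under 0.05, beside 9.71% of all genes and 15.8% of the brighter genes. None was lower by 1.5-fold with an adjusted p under 0.05. The median log2 change of the 8 was -0.40 in TTX and 0.21 in BC. Asns was the gene with no lower mean in TTX, and in BC 6 of the 8 means were higher than in CTL, those of Atf3 and Ddit3 being lower. Between TTX and BC, 5 of the 8 (62.5%) had an adjusted p under 0.05, all lower in TTX. The shares were 23.4% of all genes and 36.9% of the brighter genes. Chac1, Sesn2 and Ppp1r15a were called, 3 of the 8 (37.5%), beside 10.9% of all genes and 12.8% of the brighter genes.

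Atf4, the transcription factor at the centre of the integrated stress response, had log2 signals of 16.28, 16.20, 16.42 and 16.16 in CTL, 16.00, 15.86, 15.88 and 15.97 in TTX and 16.42, 16.48, 16.48 and 16.43 in BC. All 4 TTX arrays were below all CTL arrays, while the BC arrays overlapped with the highest CTL array. Groups that did not overlap in TTX against CTL were seen for 11 of the 34 members (32.4%), beside 15.5% of all genes. The difference of Atf4 from CTL was -0.33 ± 0.066 (SE) in TTX with an adjusted p of 0.00893, and 0.19 ± 0.066 (SE) in BC with an adjusted p of 0.131. TTX and BC differed by -0.52 ± 0.066 (SE), with an adjusted p of 0.0002, short of 1.5-fold.

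Chac1, an Atf4 target that degrades glutathione, read 12.27, 12.12, 12.27 and 11.94 in CTL, 11.75, 11.72, 11.35 and 11.54 in TTX and 12.34, 12.44, 12.83 and 12.75 in BC. Every TTX array was below and every BC array above all CTL arrays. Groups that did not overlap in BC against CTL were seen for 11 of 34 members (32.4%), beside 13.6% of all genes, and in TTX against BC for 18 (52.9%), beside 25.8%. The log2 change was -0.56 ± 0.13 (SE) in TTX (adjusted p = 0.0241) and 0.44 ± 0.13 (SE) in BC (adjusted p = 0.0769). The difference between TTX and BC, -0.999 ± 0.13 (SE), or 0.5 as a ratio, passed both thresholds with an adjusted p of 0.00031 and was -1.06 within slide set 1 and -0.94 within slide set 2. The second Chac1 probe gave the same size, -0.998 ± 0.18 (SE), with an adjusted p of 0.00196.

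Ppp1r15a (GADD34), the phosphatase subunit that reverses eIF2α phosphorylation, had signals of 11.07, 10.88, 10.93 and 10.78 in CTL, 10.41, 10.32, 10.24 and 10.36 in TTX and 11.21, 11.13, 11.31 and 11.12 in BC. The 3 groups did not overlap, with TTX lowest and BC highest. In TTX it was lower than in CTL by a log2 change of -0.58 ± 0.075 (SE), or 0.668 as a ratio, which lay just short of the 1.5-fold threshold at an adjusted p of 0.00077. In BC it differed by 0.28 ± 0.075 (SE) with an adjusted p of 0.0474. The fall between BC and TTX was -0.86 ± 0.075 (SE) (adjusted p = 1.5e-05), the smallest adjusted p among the members in that comparison, and was -0.85 within slide set 1 and -0.87 within slide set 2. Chac1, Ppp1r15a, Sesn2, Cryab and Pdia3 were called in TTX against BC under all 27 alternatives of normalization, model, threshold and left-out array.

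Sesn2, a sestrin that restrains the growth kinase mTORC1 under amino acid shortage, read 10.18, 10.00, 10.06 and 9.79 in CTL, 9.93, 9.83, 9.31 and 9.43 in TTX and 10.18, 10.19, 10.74 and 10.49 in BC. TTX and CTL overlapped, and the BC arrays of slide set 2 were level with the highest CTL array. Against CTL the change was -0.39 ± 0.17 (SE) in TTX (adjusted p = 0.213) and 0.39 ± 0.17 (SE) in BC (adjusted p = 0.233), and TTX was below BC by -0.78 ± 0.17 (SE) (adjusted p = 0.00655), the difference being -0.74 within slide set 1 and -0.82 within slide set 2.

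Ddit3 (CHOP), a transcription factor of prolonged ER stress, had signals of 12.14, 12.12, 12.13 and 11.86 in CTL, 11.69, 11.65, 11.39 and 11.85 in TTX and 12.01, 11.91, 12.18 and 11.99 in BC. The TTX arrays lay below all CTL arrays, the highest TTX array and the lowest CTL array being almost level. Ddit3 was lower than CTL by -0.42 ± 0.11 (SE) in TTX (adjusted p = 0.0339), and in BC the difference was -0.04 ± 0.11 (SE) with an interval of -0.27 to 0.20.

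Atf3, an immediate early and stress-induced factor, had signals of 11.76, 11.86, 11.89 and 11.55 in CTL, 11.11, 10.78, 10.69 and 11.89 in TTX and 11.19, 10.99, 10.92 and 11.03 in BC. It was lower than every CTL array on all 4 BC arrays and on 3 of the 4 TTX arrays, while TTX replicate 4 was level with the highest CTL array. The mean changes were the largest of this group against CTL, -0.64 ± 0.22 (SE) in TTX and -0.73 ± 0.22 (SE) in BC, but with adjusted p values of 0.105 and 0.0755 neither passed. Without TTX replicate 4, both were called, at -0.90 with an adjusted p of 0.00226 in TTX and at -0.73 with an adjusted p of 0.00409 in BC. The change in BC does not use that array, which enters its p-value only through the spread that all groups share. Over the alternatives, Atf3 was called under 1 of 28 in TTX and 4 of 27 in BC.

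Trib3, a pseudokinase that is induced by Atf4 and CHOP, ranged from 10.92 to 11.63 in CTL, 10.85 to 11.38 in TTX and 11.14 to 11.53 in BC, and the 3 groups overlapped. Asns, asparagine synthetase and a classic amino acid response gene, ranged from 13.60 to 13.94, 13.61 to 14.01 and 13.89 to 14.15 in the same order and differed between TTX and CTL by 0.03 ± 0.11 (SE), with an interval of -0.22 to 0.28. Neither gene had an adjusted p under 0.05 in any comparison.

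**Figure D3:**
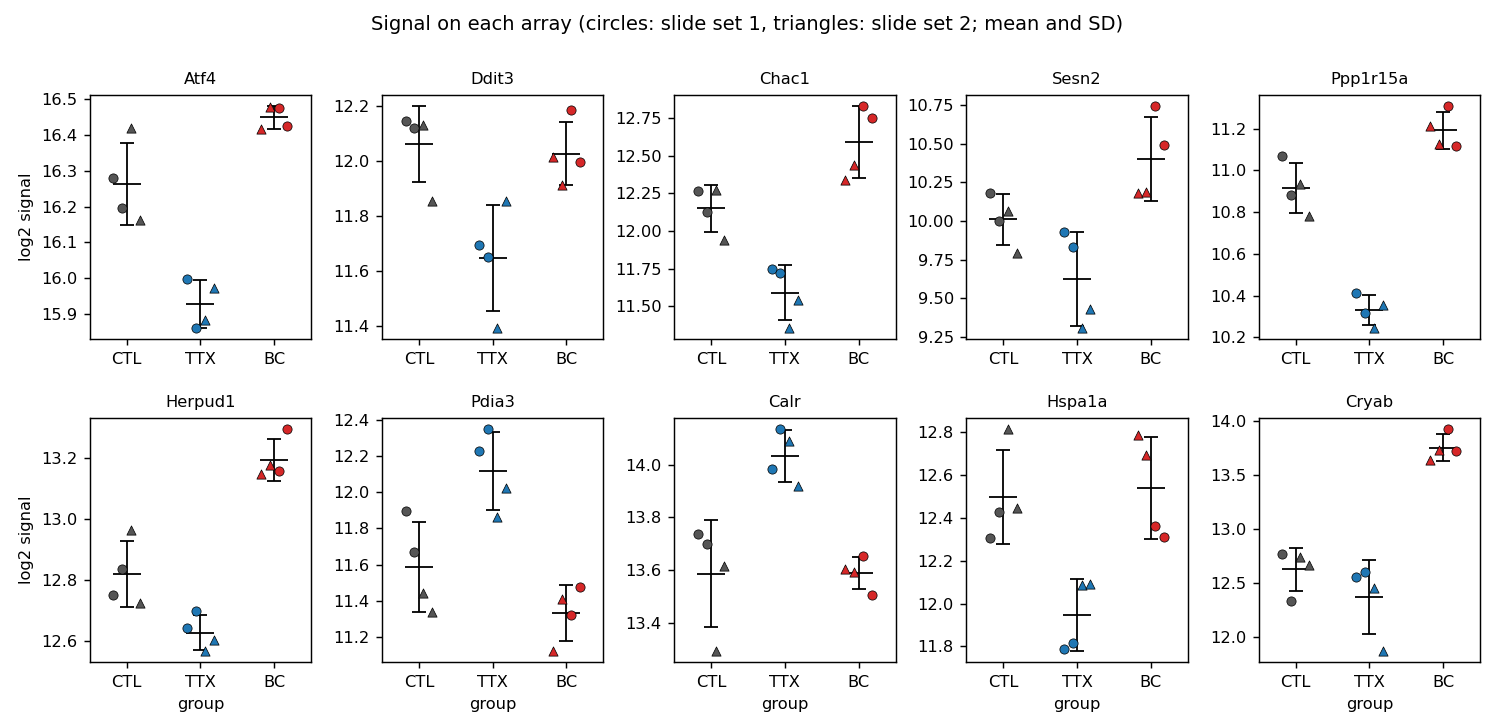
Log2 signal of 10 members on each array of CTL, TTX and BC (points; circles for slide set 1 and triangles for slide set 2), with the mean and SD of the 4 arrays of a group (bars); each panel has its own axis, which does not start at 0. Ppp1r15a, Chac1 and Herpud1 separated all 3 groups, Pdia3 and Calr were highest in TTX, and Cryab stood apart only in BC.

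Promoters were searched for elements known to carry stress signals to genes, and those of Chac1 and Ppp1r15a, printed here, held different elements. RefSeq promoter windows of the GRCr8 build, from 250 bases before to 50 bases after the annotated start, were found for 29 of the 36 genes, and only the bases before the start are printed. Pdia3, Pdia6, Atf3, Manf, Hspa1b, Hsp90aa1 and Cryab had no window and were not searched. The amino acid response element core, TGATGNAA on either strand, stood in the windows of Herpud1, Trib3 and Chac1 and in 3.98% of all 33469 windows, and the cyclic AMP element, TGACGTCA, in those of Ppp1r15a and Hsp90ab1 and in 1.83% of all windows. In the lines for Chac1 (chr3:126795881-126796130, plus strand) and Ppp1r15a (chr1:105139597-105139846, minus strand), capitals mark the core and the cyclic AMP element, in this order.
Chac1: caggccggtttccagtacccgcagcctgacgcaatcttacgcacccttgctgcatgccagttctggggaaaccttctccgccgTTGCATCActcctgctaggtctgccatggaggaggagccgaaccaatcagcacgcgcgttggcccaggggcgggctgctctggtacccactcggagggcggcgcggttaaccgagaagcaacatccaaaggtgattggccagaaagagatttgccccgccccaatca
Ppp1r15a: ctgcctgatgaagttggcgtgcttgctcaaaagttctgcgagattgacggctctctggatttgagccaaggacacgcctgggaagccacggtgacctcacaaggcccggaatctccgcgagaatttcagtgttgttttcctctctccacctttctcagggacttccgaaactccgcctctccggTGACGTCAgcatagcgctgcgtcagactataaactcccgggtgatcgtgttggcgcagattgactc
The match in Chac1 lay 167 to 160 bases before the start, on the minus strand, and that in Ppp1r15a 66 to 59 bases before it. A match of letters is a description of the window and not of a factor bound there, and Trib3, with a match close to its start, differed between TTX and BC by -0.24 ± 0.16 (SE), within its spread.

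Of the 12 ER folding and quality control genes measured, 10 had a higher mean than CTL in TTX and 10 in BC. Pdia3 and Calr were higher in TTX with an adjusted p under 0.05 and Herpud1 and Dnajb9 were higher in BC with an adjusted p under 0.05, none of them by 1.5-fold. These counts, 16.7% of the 12 in each treatment, were near the shares of the brighter genes, 15.8% in TTX and 12.6% in BC, and Pdia3 was called between TTX and BC. The median log2 change of the 12 was 0.10 in TTX and 0.11 in BC.

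Pdia3 (ERp57), a disulfide isomerase that folds glycoproteins together with the lectin chaperones, had signals of 11.90, 11.67, 11.45 and 11.34 in CTL, 12.23, 12.35, 11.87 and 12.02 in TTX and 11.12, 11.41, 11.32 and 11.48 in BC. TTX and CTL overlapped at 1 array each, whereas all TTX arrays were above all BC arrays. The log2 change in TTX was 0.53 ± 0.14 (SE) (adjusted p = 0.0417) and in BC -0.26 ± 0.14 (SE) (adjusted p = 0.393). Pdia3 was higher in TTX than in BC by 0.78 ± 0.14 (SE), or 1.72-fold, with an adjusted p of 0.00227, and the difference was 0.89 within slide set 1 and 0.68 within slide set 2.

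Calr (calreticulin), a Ca2+-binding lectin chaperone of the ER lumen, read 13.74, 13.70, 13.29 and 13.62 in CTL, 13.98, 14.14, 14.09 and 13.92 in TTX and 13.60, 13.59, 13.65 and 13.51 in BC. All TTX arrays exceeded all arrays of the other groups. It was higher than CTL by 0.45 ± 0.097 (SE) in TTX (adjusted p = 0.015), and in BC the difference was 0.00 ± 0.097 (SE), with an interval of -0.21 to 0.22. Canx (calnexin), the membrane-bound partner of the same cycle, differed from CTL by 0.05 ± 0.064 (SE) in TTX and -0.19 ± 0.064 (SE) in BC, and TTX exceeded BC by 0.23 ± 0.064 (SE) (adjusted p = 0.0226).

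Herpud1, a membrane protein of ER-associated degradation, had signals of 12.75, 12.84, 12.96 and 12.72 in CTL, 12.64, 12.70, 12.57 and 12.60 in TTX and 13.15, 13.18, 13.16 and 13.29 in BC. As for Ppp1r15a, the 3 groups did not overlap and TTX was lowest. The change in BC was 0.38 ± 0.067 (SE) (adjusted p = 0.00615), that in TTX -0.19 ± 0.067 (SE) (adjusted p = 0.11), and TTX was below BC by -0.57 ± 0.067 (SE) (adjusted p = 0.00013), slightly short of 1.5-fold. Its second probe gave -0.32 ± 0.1 (SE) for the same difference (adjusted p = 0.0399), while in BC against CTL its groups overlapped and the change was 0.22 ± 0.1 (SE) (adjusted p = 0.279). Dnajb9 (ERdj4), a co-chaperone of Hspa5, ranged from 10.93 to 11.24 in CTL, 11.04 to 11.22 in TTX and 11.37 to 11.53 in BC, with all BC arrays above the others, and the change in BC was 0.36 ± 0.08 (SE) (adjusted p = 0.0175). On the second Dnajb9 probe it was 0.28 ± 0.12 (SE) (adjusted p = 0.219), with overlapping groups.

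Hspa5 (BiP), the main HSP70 of the ER lumen and the usual gauge of ER stress, read 15.67, 15.66, 15.70 and 15.57 in CTL, 15.64, 15.64, 15.60 and 15.74 in TTX and 15.65, 15.82, 15.76 and 15.86 in BC. The 3 groups overlapped, and the change was 0.01 ± 0.062 (SE) in TTX, with an interval of -0.13 to 0.14, and 0.12 ± 0.062 (SE) in BC, with an interval of -0.01 to 0.26. Hsp90b1 (GRP94) differed by 0.14 ± 0.12 (SE) and 0.18 ± 0.12 (SE) in TTX and BC, and the second probe of Hsp90b1 by 0.21 ± 0.12 (SE) and -0.11 ± 0.12 (SE). None of Pdia4, Pdia6, Dnajc3, Creld2 and Manf, which are disulfide isomerases, an Hspa5 co-chaperone and secretory stress proteins, had an adjusted p under 0.05 in any of the 3 comparisons, with log2 changes against CTL of -0.11 (Manf) to 0.29 (Pdia4) in TTX and of 0.07 (Pdia6) to 0.18 (Pdia4) in BC. Dnajc3 was nonetheless higher on all TTX arrays and on all BC arrays than on any CTL array, by 0.16 ± 0.05 (SE) and 0.10 ± 0.05 (SE).

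A probe outside the list by its name, which the array's description calls similar to Sdf2l1, a partner of Hspa5 and DNAJB proteins in the ER, was looked at after its values were seen. It read 10.48, 10.42, 10.28 and 10.32 in CTL, 10.85, 10.94, 10.80 and 10.76 in TTX and 11.01, 10.95, 11.23 and 11.03 in BC, above all CTL arrays in both treatments. The change was 0.46 ± 0.076 (SE) in TTX (adjusted p = 0.00331) and 0.68 ± 0.076 (SE) in BC (adjusted p = 0.00036), the latter past both thresholds.

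ER stress elements, through which the unfolded protein response raises ER chaperones, were looked for in the promoters. The list holds known genes of that response, so finding such an element in members is a description and not independent support. The ER stress element (ERSE), CCAAT and CCACG separated by 9 bases on either strand, stood in 22 of the 33469 promoter windows (0.0657%), and 7 of these 22 were members: Hspa5, Hsp90b1, which held it at 2 positions, Calr, Canx, Dnajc3, Xbp1 and Creld2. Of these, 6 belong to the ER folding genes, whereas Pdia4, Dnajb9, Herpud1 and Sdf2l1 did not hold it. Pdia3, Pdia6 and Manf had no window to search. The 8 sites are shown to let the spacers be compared, 5′ to 3′ on the strand on which the element reads, with the half-sites in capitals.
Hspa5: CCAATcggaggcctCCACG
Hsp90b1, first site: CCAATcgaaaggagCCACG
Hsp90b1, second site: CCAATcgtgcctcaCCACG
Calr: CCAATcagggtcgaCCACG
Canx: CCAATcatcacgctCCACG
Dnajc3: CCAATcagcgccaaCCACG
Xbp1: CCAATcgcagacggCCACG
Creld2: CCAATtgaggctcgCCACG
The second form, ERSE-II, ATTGG and CCACG separated by 1 base, stood in 17 windows (0.0508%), 1 of them that of Herpud1. In the lines for Hspa5 (chr3:38452766-38453015, plus strand), Hsp90b1 (chr7:23012294-23012543, minus strand) and Herpud1 (chr19:10614708-10614957, minus strand), capitals mark ERSE in the first and second, and in Herpud1 the amino acid response element core followed by ERSE-II.
Hspa5: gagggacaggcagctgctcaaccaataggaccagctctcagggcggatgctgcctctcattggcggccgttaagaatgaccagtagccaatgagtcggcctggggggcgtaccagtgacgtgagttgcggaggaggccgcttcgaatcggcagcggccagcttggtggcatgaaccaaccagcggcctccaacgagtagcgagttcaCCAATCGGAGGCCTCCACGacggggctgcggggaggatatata
Hsp90b1: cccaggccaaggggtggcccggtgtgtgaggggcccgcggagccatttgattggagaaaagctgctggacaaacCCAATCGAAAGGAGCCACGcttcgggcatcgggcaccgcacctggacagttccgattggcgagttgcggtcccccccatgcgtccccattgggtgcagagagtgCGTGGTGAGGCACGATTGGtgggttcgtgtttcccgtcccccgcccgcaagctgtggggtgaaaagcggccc
Herpud1: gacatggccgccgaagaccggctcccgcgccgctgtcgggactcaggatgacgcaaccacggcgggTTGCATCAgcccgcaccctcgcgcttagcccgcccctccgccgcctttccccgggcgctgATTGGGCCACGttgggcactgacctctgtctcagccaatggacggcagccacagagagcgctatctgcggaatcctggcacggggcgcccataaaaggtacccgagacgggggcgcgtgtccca
Members with an ERSE did not move as 1 group: Calr was higher in TTX by 0.45, whereas Hspa5 differed by 0.01 and Canx by 0.05 on the same arrays. Herpud1 alone among the members held both ERSE-II and the amino acid response element core.

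**Figure D4:**
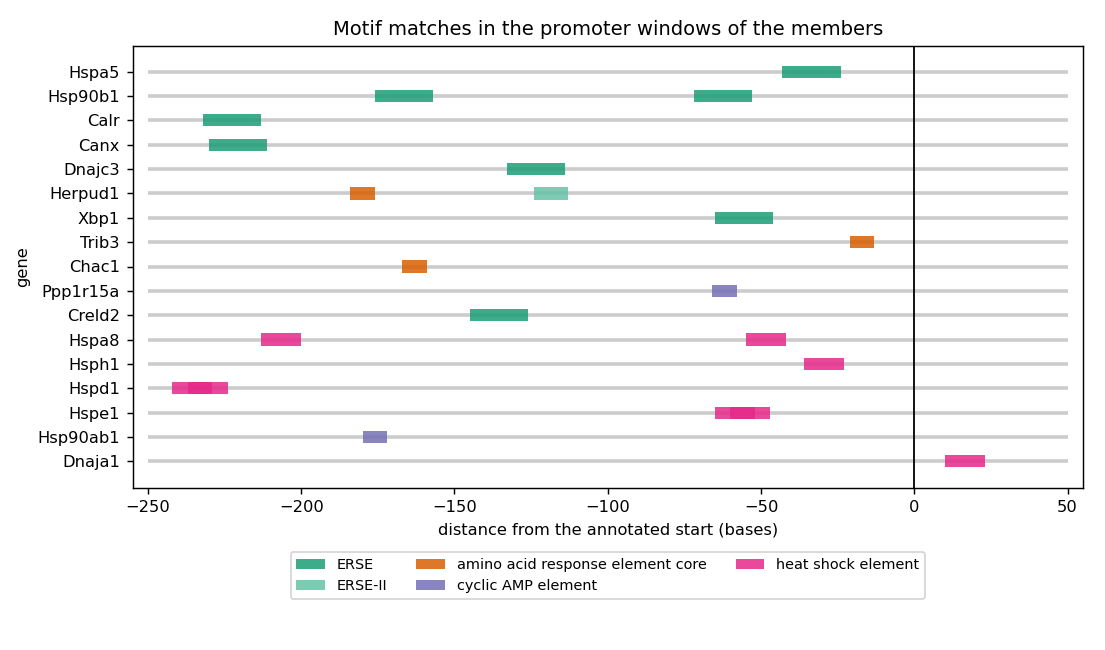
Positions of the motif matches (coloured bars, by motif) in the promoter windows of the 17 members that held at least 1, as the distance in bases from the annotated start (x axis, 250 before to 50 after). ERSE matches lay 232 to 25 bases before the start, and the heat shock elements of Hspd1 and Hspe1 are the same stretch of the genome seen from 2 starts.

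Of the 9 cytosolic HSP70, HSP90 and co-chaperone genes above background, Hspa1a alone had an adjusted p under 0.05 in TTX against CTL, and Hspa4 alone in BC against CTL. Hspa1a, the stress-inducible HSP70, read 12.30, 12.43, 12.81 and 12.44 in CTL, 11.79, 11.81, 12.09 and 12.09 in TTX and 12.79, 12.69, 12.36 and 12.31 in BC. All TTX arrays were below all others. It was lower than CTL by -0.55 ± 0.14 (SE) in TTX (adjusted p = 0.0351), differed by 0.04 ± 0.14 (SE) in BC, and was lower in TTX than in BC by -0.59 ± 0.14 (SE) (adjusted p = 0.0116), just past 1.5-fold and -0.54 within slide set 1 and -0.65 within slide set 2. Its second probe gave -0.53 ± 0.16 (SE) in TTX (adjusted p = 0.0692) and -0.33 ± 0.16 (SE) between TTX and BC (adjusted p = 0.189). The call between TTX and BC was lost with the mean of both probes and without TTX replicate 1, TTX replicate 2, BC replicate 1 or BC replicate 2, where the change was between -0.55 and -0.46.

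Hspa4, a nucleotide exchange factor of the HSP110 family, had signals of 15.03, 15.04, 14.86 and 14.76 in CTL, 15.35, 15.49, 15.38 and 15.64 in TTX and 14.63, 14.21, 13.19 and 13.77 in BC. The 3 groups did not overlap, and the BC arrays spread more widely than the others, with an SD of 0.62 beside 0.14 in CTL and 0.13 in TTX. The change in BC was -0.97 ± 0.25 (SE), or 0.51 as a ratio, with an adjusted p of 0.0369, and TTX was above BC by 1.51 ± 0.25 (SE) (adjusted p = 0.00117). The difference between TTX and BC was 1.94 within slide set 1 and 1.08 within slide set 2, and its call was lost with the arrays of a slide set averaged (adjusted p = 0.064) and with the mean of both probes, which gave 0.79 (adjusted p = 0.173). The change in BC was -1.56 within slide set 1 and -0.38 within slide set 2. It lost its call under 15 of 27 alternatives, among them leaving out any of the CTL arrays. Another was the replicate block (adjusted p = 0.0567), although this block joined BC arrays with CTL arrays of the other slide set. The second Hspa4 probe, which the array design places at chr10:38748920-38748979, beside chr10:38705693-38705752 for the first (rn4 build), did not follow. It read 11.83, 12.25, 13.23 and 13.78 in CTL, 11.85, 12.22, 13.61 and 13.66 in TTX and 13.74, 13.41, 12.34 and 11.56 in BC, that is 11.56 to 12.34 on all arrays of slide set 1 and 13.23 to 13.78 on all arrays of slide set 2. Between the groups this probe differed by 0.06 ± 0.62 (SE) in TTX and -0.01 ± 0.62 (SE) in BC.

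None of the remaining cytosolic chaperones above background had an adjusted p under 0.05 against CTL on its brightest probe. Hsp90aa1, the inducible HSP90, read 16.14, 16.12, 16.35 and 16.12 in CTL, 16.35, 16.54, 16.45 and 16.40 in TTX and 15.89, 16.15, 15.88 and 15.92 in BC, with TTX above both other groups by a narrow margin. TTX exceeded BC by 0.47 ± 0.082 (SE) (adjusted p = 0.00161), but the 3 dimmer Hsp90aa1 probes gave 0.10, -0.16 and 0.07, with adjusted p values of 0.507, 0.189 and 0.73. The constitutive Hsp90ab1 was lower in BC by -0.37 ± 0.092 (SE) on its second probe (adjusted p = 0.0309) and by -0.17 ± 0.096 (SE) on its first (adjusted p = 0.389). Between TTX and BC the second probe differed by 0.56 ± 0.092 (SE) (adjusted p = 0.0011) and the first by 0.26 ± 0.096 (SE) (adjusted p = 0.0724). Dnaja1, an HSP40 co-chaperone, was higher in TTX than in BC by 0.31 ± 0.083 (SE) (adjusted p = 0.0191). Bag3, a co-chaperone of HSP70 that is a typical Hsf1 target, was higher on all TTX arrays, 11.42 to 11.84, than on any CTL array, 10.74 to 11.32, but the change of 0.50 ± 0.15 (SE) had an adjusted p of 0.0627. Hspa8, the constitutive HSC70, differed from CTL by 0.03 in TTX and -0.09 in BC, Hsph1 by 0.14 and -0.07, and Dnajb1 by -0.18 and 0.03, none with an adjusted p under 0.05. The heat shock element, 3 alternating GAA and TTC blocks each separated by 2 bases, stood in 267 windows (0.798%), among them those of Hspa8, Hsph1, Hspd1, Hspe1 and Dnaja1. None of these 5 genes was called on its brightest probe in any comparison.

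The mitochondrial chaperonins Hspd1 (HSP60) and Hspe1 (HSP10) form the folding chamber of the matrix and lie next to each other on chromosome 9. Hspd1 read 15.56, 15.72, 15.52 and 15.50 in CTL, 15.71, 15.80, 15.71 and 15.73 in TTX and 15.34, 15.28, 15.07 and 15.31 in BC. The BC arrays were below all others on this probe and on the 3 dimmer probes. In BC the change was -0.32 ± 0.074 (SE) (adjusted p = 0.0216) on the brightest probe, and -0.54, -0.58 and -0.57 on the others, with adjusted p values of 0.0394, 0.12 and 0.00906. TTX exceeded BC by 0.48 ± 0.074 (SE) on the brightest probe (adjusted p = 0.00073) and by 0.76, 0.83 and 0.82 on the others, all 3 of which passed both thresholds. Hspe1, in contrast, read 15.78 to 16.00 in CTL, 15.91 to 16.03 in TTX and 15.83 to 15.90 in BC and differed from CTL by 0.08 ± 0.06 (SE) in TTX and -0.01 ± 0.06 (SE) in BC.
Hspd1 and Hspe1 start on opposite strands of 1 short region, and the same pair of overlapping heat shock elements lay at 64084262 to 64084279 on chromosome 9 (GRCr8) in both windows. They are shown in the direction of Hspe1, with the blocks in capitals.
Hspe1, first element: TTCtaGAAccTTC
Hspe1, second element: GAAccTTCcgGAA

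**Figure D5:**
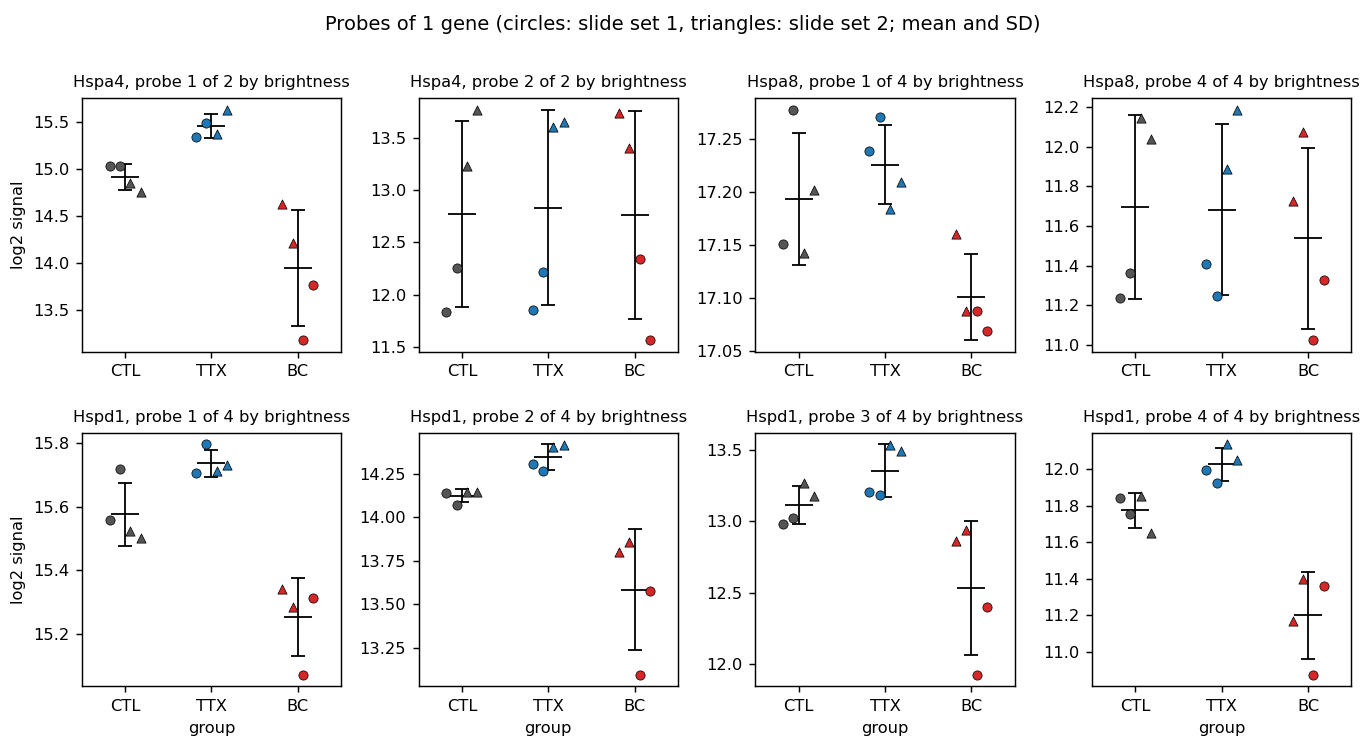
Log2 signal on each array (points; circles for slide set 1 and triangles for slide set 2) with the mean and SD of the 4 arrays of a group (bars), for probes of Hspa4, Hspa8 and Hspd1 in order of brightness; each panel has its own axis, which does not start at 0. The second Hspa4 probe and the dimmest Hspa8 probe separated the slide sets and not the groups, whereas the 4 Hspd1 probes were lowest on the BC arrays.

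Of the 52 member probes, 2 differed by 1.5-fold or more between the slide sets (3.85%), beside 7.88% of all probes, and both were dimmer probes, the second of Hspa4 at 1.56 and the dimmest of Hspa8 at 0.74 (log2, set 2 minus set 1, mean over the groups). The brightest Hspa8 probe did not show it.

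The small heat shock proteins held the largest rise in BC. Cryab (alpha-B crystallin), a holdase that binds unfolding proteins without ATP and is abundant in glia, muscle and lens, read 12.77, 12.34, 12.74 and 12.66 in CTL, 12.56, 12.61, 12.45 and 11.87 in TTX and 13.63, 13.73, 13.93 and 13.72 in BC. Every BC array lay well above all others. Cryab rose by 1.13 ± 0.16 (SE) in BC, or 2.18-fold, with an adjusted p of 0.00173, and the rise was 1.27 within slide set 1 and 0.98 within slide set 2. It was the largest positive change among the members against CTL. In TTX the difference was -0.26 ± 0.16 (SE) (adjusted p = 0.426), and TTX was below BC by -1.38 ± 0.16 (SE) (adjusted p = 0.00012), which was -1.24 within slide set 1 and -1.52 within slide set 2. The rise in BC was called under 26 of 27 alternatives and missed the threshold where the 2 arrays of a group in a slide set were averaged (adjusted p = 0.0929). Hspb1 (HSP27) differed from CTL by 0.39 ± 0.13 (SE) in TTX (adjusted p = 0.0894) and 0.28 ± 0.13 (SE) in BC (adjusted p = 0.271).

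Hspb2, a muscle-type small heat shock protein outside the list, overlaps Cryab on chromosome 8 in the RefSeq annotation of GRCr8 (59989640 to 59991215 and 59989885 to 59995532). It read 5.29, 5.03, 5.30 and 4.78 in CTL, 4.82, 3.86, 4.23 and 4.01 in TTX and 6.00, 5.82, 6.40 and 6.37 in BC, with no overlap between the groups in BC against CTL. Hspb2 rose by 1.05 ± 0.22 (SE) in BC (adjusted p = 0.0136) and, unlike Cryab, fell in TTX (-0.87 ± 0.22 (SE), adjusted p = 0.0295). Hspb6 rose by 0.63 ± 0.17 (SE) in BC (adjusted p = 0.0432) and fell in TTX (-0.83 ± 0.17 (SE), adjusted p = 0.0095). Hspb3 was well above background only on the BC arrays, where it was at least 2.56-fold higher than in CTL (adjusted p = 0.0046).

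Of 12 markers of vascular and fibroblast cells measured, 3 were called in each treatment. Dcn, Lum and Cldn5 were called higher in BC, with log2 changes of 0.87, 0.85 and 1.65, and Dcn, Lum and Rgs5 were called lower in TTX, Dcn and Lum with -0.62 and -0.98. The list as a whole was mixed in TTX, where 7 of the 12 means were lower than in CTL and 5 higher (median -0.09). In BC, 9 were higher and 3 lower (median 0.56). On the TTX arrays Rgs5 was never well above background, and Pecam1, which defines endothelium, was so on none of the 12 arrays. The summed signal of the 12 genes was 8317 to 9942 in CTL, 5696 to 6232 in TTX and 15434 to 21320 in BC. The part of these cells in the Cryab, Hspb2 and Hspb6 values was not tested. Astrocyte markers summed to 70753 to 90590 in CTL, 77475 to 112470 in TTX and 71352 to 85976 in BC, with 0 of the 10 called by limma in any comparison. At an unadjusted p under 0.05 there were 1 for TTX and 0 for BC, each against CTL, and 2 between the treatments. Of 13 GABAergic interneuron markers, 8 were called lower in TTX, among them the first of the list, Gad1, with a log2 change of -1.56, whereas Calb2 was called higher (0.67). In BC, Vip and Npy were called higher (1.09 and 0.80) and Calb2 lower (-0.80). The summed signal of the 13 genes was 316651 to 370004 in CTL, 136601 to 146343 in TTX and 416669 to 476814 in BC. Their part in the low values of Atf4, Chac1 and Ppp1r15a in TTX was not tested. Of the other lists, Pdgfra of the oligodendrocyte lineage was called lower in TTX (-0.79). Of the 11 genes of that list, 8 had a higher mean in TTX than in CTL and 3 a lower one (median 0.14). Among 7 glutamatergic genes, Slc17a6 and Neurod2 were called higher in TTX (0.59 and 0.75), and Neurod2 and Prox1 lower in BC (-0.72 and -0.72). The 7 genes summed to 33251 to 40576 in CTL, 50340 to 54804 in TTX and 23276 to 28546 in BC. The microglial and pan-neuronal lists had 0 calls by limma against CTL. At its unadjusted p under 0.05 there were 2 and 5 genes in TTX and 1 and 2 in BC. Of 9 pan-neuronal genes, 3 (33.3%) fell in TTX (adjusted p under 0.05), beside 9.71% of all and 15.8% of brighter genes. The 9 genes summed to 423198 to 471800 in CTL, 383708 to 416014 in TTX and 392453 to 403719 in BC.

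Further genes of the same pathways were read from 3 lists. Over all genes, 4.17% were called in TTX against CTL, 3.61% in BC against CTL and 10.9% in TTX against BC. For the brighter genes these shares were 4.84, 3.72 and 12.8%. Of 41 further unfolded protein response and ER folding genes, 1 was called in TTX against CTL (2.44%) and 3 in TTX against BC (7.32%). In BC against CTL 0 were called, with 9 at an unadjusted p under 0.05 by limma. The medians were -0.01 in TTX and 0.05 in BC against CTL, and -0.12 in TTX against BC. Ero1a, the oxidase that recharges the disulfide isomerases, fell by -0.68 ± 0.094 (SE) in TTX (adjusted p = 0.00124). Of the disulfide isomerases, Pdia3 was higher in TTX, Pdia4 and Pdia6 did not pass, and P4hb differed by -0.21 (adjusted p = 0.0771). Ero1a and Ero1b were lower in TTX than in BC by -0.61 and -0.66, and Wfs1 (wolframin) was higher by 0.71. Of the sensors, Atf6 differed from CTL by 0.07 ± 0.14 (SE) in TTX and -0.46 ± 0.14 (SE) in BC (adjusted p = 0.0725), Ern1 (IRE1) by -0.01 ± 0.057 (SE) and 0.14 ± 0.057 (SE), and Eif2ak3 (PERK) by -0.28 ± 0.18 (SE) and -0.07 ± 0.18 (SE). None of these sensors passed against CTL.

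The next list held 39 further genes of the integrated stress response, targets and also regulators such as the eIF2α kinase Eif2ak4. Of these 39, 2 were called lower in TTX (5.13%) and 1 higher in BC (2.56%). Between TTX and BC 6 were called (15.4%). The shares of all genes called in these comparisons were 4.17, 3.61 and 10.9%, and those of the brighter genes 4.84, 3.72 and 12.8%. The medians of the list were -0.09, 0.13 and -0.18. Nupr1, a stress-induced chromatin protein, had the largest changes: it read 8.19, 8.34, 8.53 and 7.89 in CTL, 6.55, 6.30, 6.05 and 6.07 in TTX and 9.32, 9.18, 10.07 and 9.70 in BC, fell in TTX (-1.99 ± 0.21 (SE), adjusted p = 0.0002) and rose in BC (1.33 ± 0.21 (SE), adjusted p = 0.00261). Vldlr, a reelin and lipoprotein receptor, fell in TTX as well (-0.64 ± 0.11 (SE), adjusted p = 0.0043). Between TTX and BC, Slc7a1, Eif2ak4, Vldlr and Stc2 were lower in TTX with Nupr1, by -0.66, -0.75, -0.93 and -1.04, whereas Gdf15 was higher by 0.94. None of the amino acid synthesis and tRNA synthetase genes of the list, such as Psat1, Phgdh and Aars1, was called in any comparison, but Psph, Sars1, Shmt2 and Yars1 were lower in TTX than in BC with an adjusted p under 0.05, by -0.57, -0.43, -0.39 and -0.34.

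Of 59 further heat shock factor, cytosolic and mitochondrial chaperone genes, 3 were called in TTX (5.08%) and 4 in BC (6.78%) against CTL. In TTX against BC 9 were called (15.3%). The shares of all genes called in these comparisons were 4.17, 3.61 and 10.9%, and those of the brighter genes 4.84, 3.72 and 12.8%. The medians of the list were 0.04, -0.02 and -0.01. Hmox1 (heme oxygenase), which is induced by oxidative stress, rose in TTX by 0.87 ± 0.16 (SE) (adjusted p = 0.00722), and Ahsa2, an HSP90 co-chaperone gene, fell in BC by -0.60 (adjusted p = 0.0315). Hsf1 differed from CTL by -0.15 ± 0.13 (SE) in TTX (adjusted p = 0.574) and by 0.02 ± 0.13 (SE) in BC (adjusted p = 0.988), and none of the CCT chaperonin subunits was called in any comparison.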

How the data were processed

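Total RNA of 12 samples, 4 in each group, was Cy3-labelled and measured on Agilent 1-colour rat genome arrays. The authors deposited a scanner file per array, whose processed signal intensity had been corrected for background within the array by Feature Extraction 9.5.1.1, and a quantile-normalized log2 table, which served as an alternative; its column of BC replicate 2 holds 1131 empty values. Groups came from the sample labels.

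Control spots were removed, as were the 13 to 40 outlier spots of each array, and log2 processed signals were quantile-normalized over the 12 arrays with no filter on dim probes. Group means were then fitted on all probes and arrays with limma 3.58.1 and eBayes (R 4.3.3). The number of arrays limits the precision. Calls needed a Benjamini-Hochberg FDR under 0.05 and 1.5-fold, the thresholds of the methods, which name limma for the arrays. The steps were checked on simulated data. Python 3.11.15, pandas 2.3.3, numpy 2.4.6 and matplotlib 3.10.9 made the tables and figures, and data.table (version 1.17.8) read the files in R. Probes were matched to genes by member name, then by accession, symbol or synonym in the RefSeq table of GRCr8, and promoter windows came from RefSeq.

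Members, further gene lists and markers of 7 cell types were chosen with earlier results of these data known. Named were all members, the sensors, the defining marker of each marker list and some of the called markers. From the further lists some genes were named, called or not, and not every called gene was named. As a check of pairing, the deviations from group means of same-numbered arrays were correlated. For TTX with CTL r was 0.28 to 0.38, for BC with CTL -0.35 to -0.24 and for TTX with BC -0.38 to -0.28. Same-numbered TTX and CTL arrays shared slide sets, and BC arrays had the numbers of arrays in the other set. Within a slide set, arrays of different groups correlated at 0.20 to 0.41, whatever their numbers. The values therefore show no pairing by number beyond the slide set, and no pairing comes from the labels.

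Alternatives were normexp background correction (offset 50), median signal without background correction, the 75th percentile, the deposited log2 values, a filter for probes well above background, a block for slide, slide set or replicate, the 2 arrays that a group had in a slide set averaged or as a random block, the methods' t-test, trended and robust eBayes, fits without the remaining group, no fold threshold, the mean over the probes of each gene and 1 array left out at a time. Added after seeing the data were the replicate block with only CTL and TTX and the values within slide sets. The result of 1 marker gene is not reported here.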

Additional observations from a re-analysis of the deposited data

Results flagged for a closer look

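In 5 of the groups of 4 arrays examined, 1 array stood apart from the other 3 by more of the group's range than Dixon's 95% critical value. Chance flags about 1 in 20 groups, and 99 groups were examined. Ddit3 in CTL (gap 0.912 of the range) was lowest on CTL replicate 4, at 11.86 beside 12.12 to 12.15 on log2 scale. Hsp90aa1 was highest on CTL replicate 3 (0.907), at 16.35 beside 16.12 to 16.14, and on BC replicate 2 (0.87), at 16.15 beside 15.88 to 15.92. Bag3 in CTL (0.856) was lowest on CTL replicate 2, at 10.74 beside 11.24 to 11.32. Dnajc3 in TTX (0.85) was lowest on TTX replicate 3, at 9.70 beside 9.76 to 9.76. Without CTL replicate 4, the change of Ddit3 in TTX was -0.48 (adjusted p = 0.0208), without CTL replicate 2 that of Bag3 in TTX was 0.36 (adjusted p = 0.118), and without BC replicate 2 the difference of Hsp90aa1 between TTX and BC was 0.54 (adjusted p = 0.000811).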

How the results depend on the processing

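The number of members called in TTX against CTL was 0 under the other background corrections, scalings, blocks and models, among them the replicate block over all arrays and, chosen after seeing the data, with only CTL and TTX, and 7 without a fold threshold. Leaving out 1 array gave 0 to 3 calls: 2 without CTL replicate 1 (Pdia3, Hspa1a), 1 without CTL replicate 2 (Ppp1r15a), 2 without CTL replicate 4 or TTX replicate 1 (Chac1, Ppp1r15a), 1 without TTX replicate 2 (Chac1) or TTX replicate 3 (Pdia3), and 3 without TTX replicate 4 (Atf3, Ppp1r15a, Hspa1a). In BC against CTL, the 2 calls became 6 without a fold threshold, 1 with a group's arrays of a slide set as a random block, 0 with these arrays averaged, 1 with the replicate block and 1 with the mean of a gene's probes. Leaving out 1 array gave 1 to 3, Cryab alone being called without CTL replicates 1, 2, 3 or 4, TTX replicates 1, 2 or 3, or BC replicates 2 or 4. Atf3 was called lower in BC among probes well above background (adjusted p = 0.0491), with only the 2 groups compared (0.00657) and by the methods' t-test (0.0146). In TTX against BC the 7 calls became 16 without a fold threshold and stayed at 6 to 8 otherwise, with 6 to 7 when 1 array was left out. No called change turned its sign under any of these alternatives, and the causes of lost or gained calls were not tested. Another scaling, the 75th percentile, moved the median of all probes to 0.05 in TTX against CTL and to 0.10 in TTX against BC. The SE of a log2 change against CTL ranged from 0.05 (Dnajc3) to 0.25 (Hspa4) over the brightest probes of the genes above background, and signal over background gave no fold for Hspa1b.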
